A study of Homo sapiens with 4 samples.

Results

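The nuclear genes for the mitochondrial respiratory chain and ATP synthase were followed in MKN28 cells, a human gastric adenocarcinoma cell line. Members were the genes of the expression table whose names start with NDUF, SDHA to SDHD, UQCR, CYC1, COX4 to COX8 or ATP5, without 5 entries with pseudogene names. They had to reach an FPKM of at least 1 in any library, a level in sequenced fragments scaled by the authors for transcript length and library size. The names took in 98 genes, and 90 of them passed, of 11729 genes passing in the whole table. The members were thus chosen by name and by this minimum alone, and no difference between libraries chose them.

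The members are not complex I alone. They hold 77 structural subunits, of which 37 belong to complex I, 4 to complex II, 9 to complex III, 12 to complex IV and 15 to complex V. The other 13 are 8 complex I and 2 complex II assembly factors, COX7A2L, ATP5S and the NDUFC2-KCTD14 read-through locus. Just inside the minimum, the highest FPKM in any library was 5.65 for SDHAF1 and 9.96 for NDUFAF3 and ATP5S. Just outside it, the highest was 0.342 for NDUFA4L2, 0.159 for COX6B2 and 0.0725 for COX6A2. ATP5L2, COX4I2, COX7A1 and COX8C were listed at 0 in all 4 libraries, and ATP5J2-PTCD1, a read-through locus, was at or next to 0. Genes encoded by mitochondrial DNA were not analysed here.

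The study asked whether N-linked glycosylation of KIAA1324, a transmembrane protein, is needed for what it does in gastric cancer cells. Each of 4 groups was 1 poly(A) RNA library of MKN28 cells that carried a stable tetracycline-inducible (tet-on) viral construct. The constructs were luciferase (Luc, the control), KIAA1324 WT, 3NQ, in which the asparagines of the putative N-glycosylation sites were replaced by glutamine, and ΔTM, without the transmembrane domain. All 4 groups share the parental line and the tet-on system, and doxycycline treatment of the cells used for RNA was not stated. KIAA1324 stood at an FPKM of 2.86 in Luc, 11185 in WT and 8197 in 3NQ, but was listed at 0 in the library labelled ΔTM, which its label does not account for. It is called the ΔTM-labelled library here, and its values rest on that label. The epithelial markers EPCAM (345 to 391), CDH1 (233 to 272) and KRT19 (478 to 601) were high in every library. KRT8 and KRT18 were high too but differed more, with 8501 and 3684 in Luc and 4509.8 and 2115 in WT. The leukocyte gene PTPRC stayed at or below 0.115 and CD3E was at 0. However, CD68, also listed for leukocytes, was at 4.44 to 5.84, and COL1A1, listed for fibroblasts, at 12.1 to 15.3. The other fibroblast and leukocyte genes, and the endothelial VWF and CDH5, stayed at or below 0.363. Since each group is 1 library, differences could not be checked on replicates and no p-value is given. Fewer cells of a kind and less RNA per cell cannot be told apart in such bulk libraries.

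The respiratory chain sits in the inner mitochondrial membrane. Complexes I and II pass electrons from NADH and succinate to ubiquinone, complex III passes them on to cytochrome c, and complex IV passes them to oxygen. Complexes I, III and IV pump protons, and complex V, the ATP synthase, lets the protons flow back to make ATP. Most subunits are encoded in the nucleus and imported, and dedicated assembly factors insert cofactors and join the subunits. Mitochondrial DNA encodes the remaining subunits, so that both genomes have to supply each of complexes I, III, IV and V, while complex II is nuclear throughout.

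The members were among the more abundant mRNAs of these cells. Where 4 FPKM values are given in a row, they are those of Luc, WT, 3NQ and the ΔTM-labelled library, in this order. The members' median FPKM, averaged over the 4 libraries, was 69.9, against 16.1 for all genes passing the minimum. The median subunit stood at 56.4 in complex I, 89.9 in complex II, 103 in complex III, 199 in complex IV and 174 in complex V. The assembly factors of complexes I and II had a median of 16.1, like that of all genes. ATP5J2, the f subunit of the ATP synthase, led with 552, followed by ATP5B, its catalytic beta subunit, with 481, and COX8A, a small subunit of complex IV, with 443. ATP5D, the delta subunit of the ATP synthase, was the lowest structural subunit with 9.83.

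**Figure D1:**
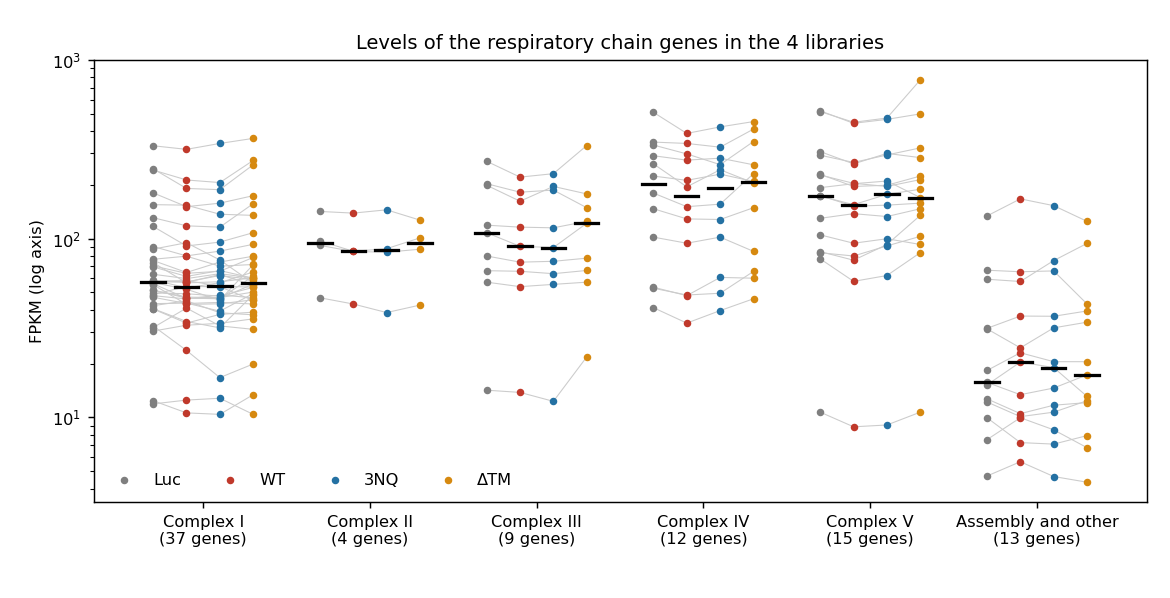
FPKM (log axis) of the 90 members in Luc, WT, 3NQ and the ΔTM-labelled library, by complex. Each point is 1 gene in 1 library, grey lines join a gene's 4 values and black bars are medians. Complexes IV and V lie highest, and assembly factors and other members lie lowest.

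Complex II, succinate dehydrogenase, has 4 nuclear subunits. SDHA, the flavoprotein that oxidizes succinate, had an FPKM of 46.7, 43.1, 38.6 and 42.5. SDHB, the iron-sulfur subunit, had 91.7, 84.8, 84.0 and 87.3. The membrane anchors were SDHC, with 97.2, 85.0, 87.9 and 101, and SDHD, with 142, 139, 145 and 127. All 4 genes were lower in WT than in Luc, with log2 ratios from −0.19 to −0.032, and none reached 1.5-fold in any comparison.

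The question for the members was whether their level in WT, 3NQ or the ΔTM-labelled library differed from that in Luc. Log2 ratios were taken on FPKM + 1, which understates changes of low genes, and a gene was called at 1.5-fold. In WT, no member was called higher or lower, against 3.35% of all genes called higher and 3.30% called lower. Members were nonetheless mostly a little lower in WT. Of the 90, 73 (81.1%) had a lower FPKM in WT than in Luc, against 50.9% of all genes. The median log2 ratio was −0.14 for the members and −0.0049 for all genes. The ratios ran from −0.44 to 0.41, and the middle of them from −0.23 to −0.025.

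By complex, the structural subunits lower in WT than in Luc were 28 of 37 in complex I, 4 of 4 in complex II, 9 of 9 in complex III, 12 of 12 in complex IV and 13 of 15 in complex V. The medians were −0.12, −0.11, −0.11, −0.16 and −0.16, respectively. Within complex V, the 5 subunits of the F1 head had a median of −0.23, and the 10 subunits of the Fo part and the stalk had −0.15. The 7 core subunits of complex I, which carry its redox centres, had −0.062. Of the 10 assembly factors for complexes I and II, 5 were higher in WT, and their median was 0.10 with ratios from −0.34 to 0.41. Against the mean of 3NQ and the ΔTM-labelled library in place of Luc, complex II had a median of 0.0068 and the F1 head −0.13. The 8 complex I assembly factors had −0.11, and all genes 0.033. The medians of these small classes thus depended on the library that WT was set against, and so did that of all genes.

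A lower threshold of 1.2-fold shows which members lay at the ends. In WT, 14 members (15.6%) were lower by at least this much, against 17.1% of all genes, and 5 (5.56%) were higher, against 15.3% of all genes. At this threshold, the share of lower members was thus near that of all genes, and the share of higher members was smaller. Below the threshold, both quartiles of the members' ratios (−0.23 and −0.025) were lower than those of all genes (−0.18 and 0.17). Of the 14, 12 were structural subunits, namely 6 of complex I, 2 of complex III, 3 of complex IV and 1 of complex V. Of the 5 higher ones, 4 were not structural subunits, namely the complex I assembly factors NDUFAF1, NDUFAF3 and NDUFAF4, and COX7A2L.

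The lowest ratio in WT belonged to NDUFA3, a supernumerary subunit in the membrane arm of complex I. Its FPKM was 32.5, 23.7, 16.7 and 19.9, so that Luc was the highest library, 3NQ the lowest, and WT lay above 3NQ and the ΔTM-labelled library. COX5A, a matrix-side subunit of complex IV, was 262, 195, 243 and 205, a log2 ratio of −0.42 in WT. ATP5E, the epsilon subunit of the F1 part, was 77.1, 57.7, 62.2 and 83.5, or −0.41 in WT. ATP5S, which is linked to ATP synthase function but is not one of its core subunits, was 9.96, 7.23, 7.09 and 7.91, also −0.41 in WT. In COX5A and ATP5E, WT was the lowest of the 4 libraries, whereas in ATP5S it lay just above 3NQ.

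At the other end, NDUFAF4 had an FPKM of 15.2, 20.4, 19.0 and 13.1. Its partner NDUFAF3 had 7.51, 9.96, 8.52 and 6.77. Both act together early in the assembly of complex I, and both were highest in WT and lowest in the ΔTM-labelled library. Their log2 ratios to Luc in WT were 0.41 and 0.37. NDUFB2, a supernumerary complex I subunit, was 31.8, 40.9, 32.5 and 31.1, or 0.35 in WT, and WT alone stood out.

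**Figure D2:**
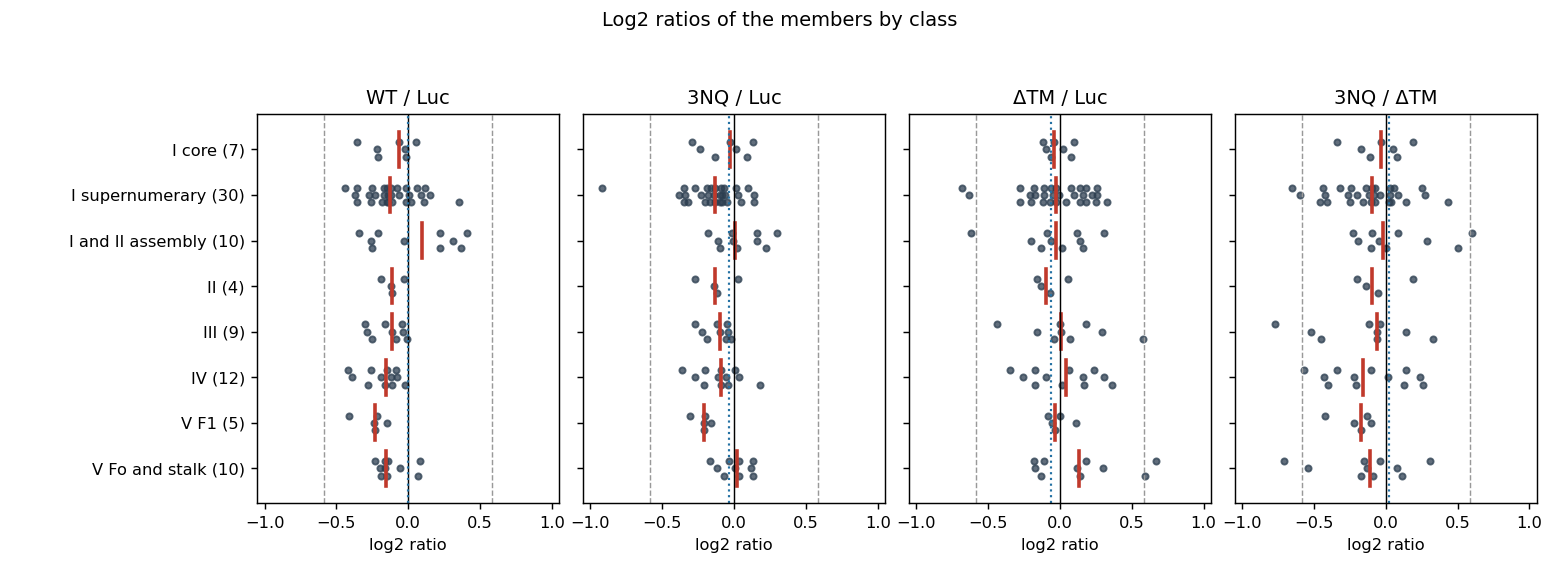
Log2 ratios of FPKM + 1 for the members by class in 4 comparisons. Points are genes, red bars class medians, the dotted blue line the median of all 11729 genes and dashed lines 1.5-fold. In WT all genes of complexes II, III, IV and F1 lie left of 0, and in 3NQ over the ΔTM-labelled library all 5 F1 genes do, while the other complexes have genes on both sides.

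Which library was lowest or highest adds to this, because it does not depend on a threshold. WT was the lowest of the 4 libraries for 41 members (45.6%), against 26.7% of all genes, 3NQ for 23 (25.6%), against 23.2%, the ΔTM-labelled library for 22 (24.4%), against 31.8%, and Luc for 4 (4.44%), against 18.3%. The ΔTM-labelled library was the highest for 40 members (44.4%), against 16.8% of all genes, Luc for 29 (32.2%), against 30.6%, WT for 11 (12.2%), against 33.6%, and 3NQ for 10 (11.1%), against 19.0%. Without the ΔTM-labelled library, a comparison added after seeing the data, WT was the lowest of 3 for 51 members (56.7%), against 33.2% of all genes. Against the mean of 3NQ and the ΔTM-labelled library, which leaves out Luc, WT was lower for 68 members (75.6%), against 44.1% of all genes. The members' median log2 ratio was then −0.078, and that of all genes 0.033. Placing WT below other libraries therefore did not hinge on Luc alone. The members' median was closer to 0 than against Luc, but the median of all genes was also higher.

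**Figure D3:**
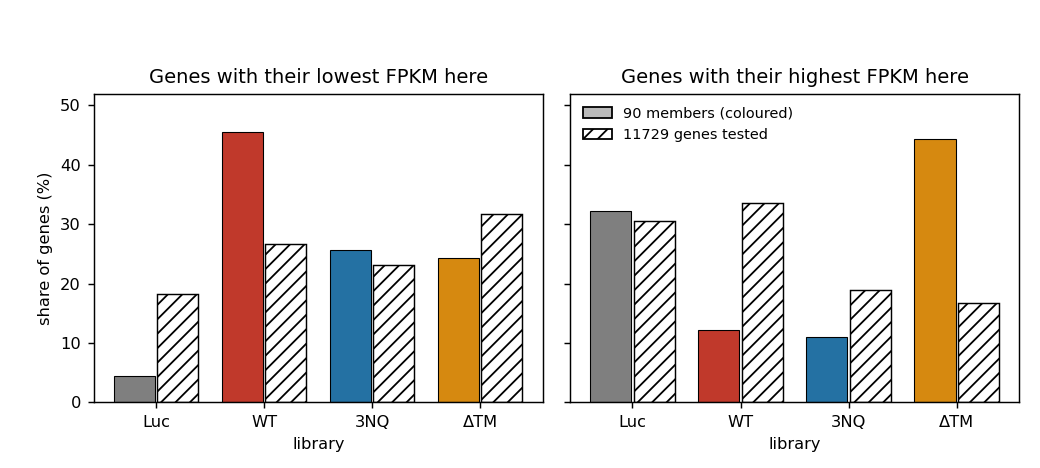
Share of genes (%) with their lowest (left) or highest (right) FPKM in each library, for the 90 members (coloured) and all 11729 genes passing the minimum (hatched). The members' lowest value is most often in WT (45.6%) and their highest most often in the ΔTM-labelled library (44.4%).

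The sizes involved were small. Between the highest and the lowest library, 11 members (12.2%) differed by at least 1.5-fold, against 14.6% of all genes. The median log2 range over the 4 libraries was 0.29 for members and 0.31 for all genes. Summed over the 77 structural subunits, the FPKM was 10148, 9052, 9345 and 10435. Relative to Luc, the sum differed by −10.8% in WT, −7.91% in 3NQ and 2.83% in the ΔTM-labelled library. These genes took 1.76%, 1.60%, 1.60% and 1.86% of the summed FPKM of the table.

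The sums by complex kept that order of libraries only in part. Complex I summed to 2991, 2726, 2712 and 3022. Complex IV summed to 2543, 2213, 2296 and 2521, and complex V to 3119, 2783, 2956 and 3406. Complex V in the ΔTM-labelled library thus differed by 9.18% from Luc, while complex II, at 377, 351, 355 and 358, differed by −5.04%. Complex III, at 1116, 978, 1025 and 1128, differed by −12.4% in WT.

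In 3NQ, no member was called higher than in Luc, against 1.72% of all genes, and 1 (1.11%) was called lower, against 2.54%. That member was NDUFA3, with a log2 ratio of −0.92. Of the 90 members, 64 (71.1%) were lower in 3NQ than in Luc, against 57.0% of all genes. The members' median was −0.095, and that of all genes −0.038. After rescaling on the median of ratios, the members' median was −0.057 and that of all genes −0.0018. With the upper quartile, these were −0.042 and 0.013. After these rescalings 59 and 55 members, respectively, were lower than in Luc, and the share of all genes was not counted. Without rescaling, the classes differed. All 9 complex III subunits and all 5 F1 subunits were lower, with medians of −0.10 and −0.21, whereas 6 of the 10 Fo and stalk subunits were higher. At 1.2-fold, 2 members (2.22%) were higher, against 9.81% of all genes, and 14 (15.6%) lower, against 16.3%. WT and 3NQ are both set against the same Luc library, so that these values are not independent.

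In the ΔTM-labelled library, 3 members (3.33%) were called higher, against 1.53% of all genes, and 3 (3.33%) lower, against 1.57%. The higher members were ATP5G1 (0.67), NDUFC2-KCTD14 (0.66) and ATP5J2 (0.59), each given as the log2 ratio to Luc. The lower members were NDUFA3 (−0.68), NDUFC2 (−0.63) and SDHAF2 (−0.62). After rescaling on the median of ratios, NDUFC2 and SDHAF2 stood at −0.56 and were no longer called, and NDUFA3, at −0.62, was. The members' median was −0.018, above the −0.06 of all genes, and 47 (52.2%) were lower than in Luc, against 63.0% of all genes. At 1.2-fold, 11 (12.2%) were higher, against 7.19% of all genes, and 8 (8.89%) lower, against 12.8%. After rescaling on the median of ratios, the members' median turned to 0.043, against −0.0025 for all genes. With the median of genes of like transcript length taken off instead, the members' median was 0.0075, against 0 for all genes. No direction against Luc is therefore given for the members as a group in that library.

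3NQ and the ΔTM-labelled library differ without Luc or WT. Of the members, 4 (4.44%) were called lower in 3NQ, against 1.84% of all genes, and 1 (1.11%) higher, against 1.42%. The lower ones were UQCR11 (−0.77), ATP5J2 (−0.71), NDUFS4 (−0.65) and NDUFA2 (−0.60), and the higher one was SDHAF2 (0.60). Counted in any size, 60 members (66.7%) were lower in 3NQ, against 45.7% of all genes. At 1.2-fold, 19 members (21.1%) were lower in 3NQ, against 10.8% of all genes, and 8 (8.89%) were higher, against 11.0%. The members' median was −0.10 and that of all genes 0.021.

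**Figure D4:**
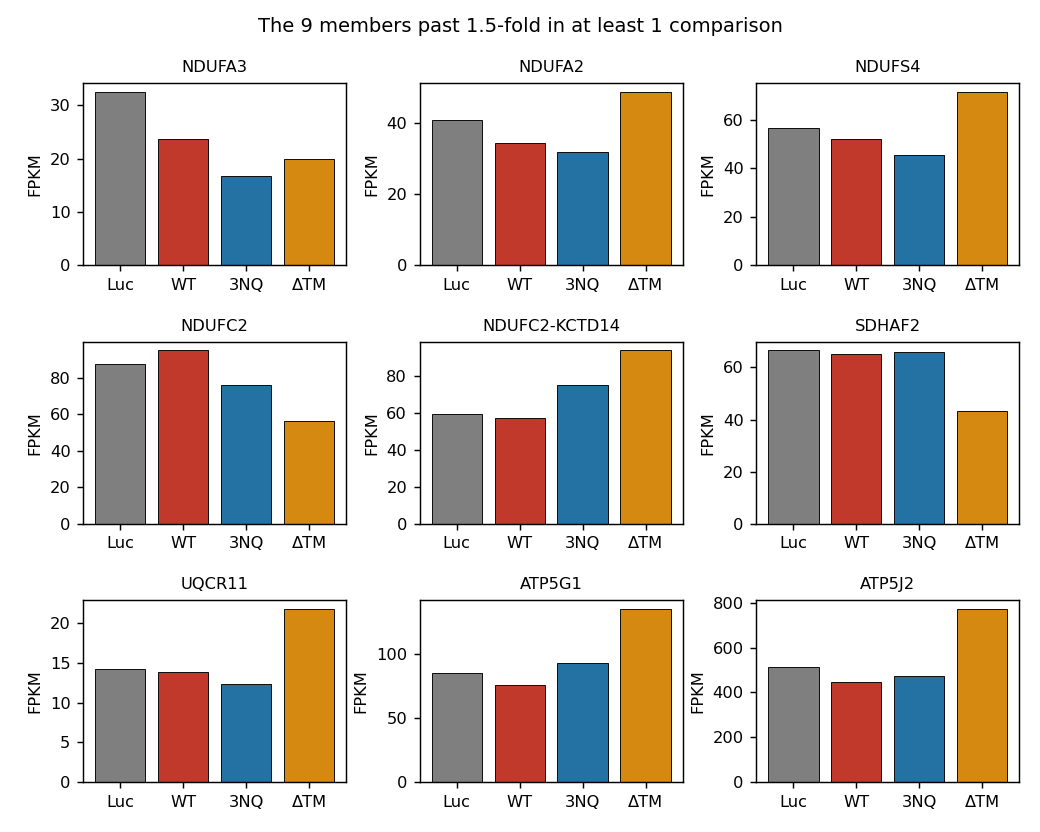
FPKM in each library of the 9 members that passed 1.5-fold in at least 1 of the 4 comparisons. Each bar is 1 library. UQCR11, ATP5G1 and ATP5J2 stand out upwards in the ΔTM-labelled library, and NDUFA3 is highest in Luc.

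Of the called complex I subunits, NDUFS4, a subunit near the NADH-oxidizing tip of the enzyme, had an FPKM of 56.8, 52.1, 45.3 and 71.5. NDUFA2, in the same arm, had 40.6, 34.4, 31.7 and 48.6. In both genes 3NQ was the lowest library and the ΔTM-labelled library the highest. NDUFA3, on chromosome 19 (54606036 to 54612564, plus strand, GRCh37), overlaps TFPT on the opposite strand. TFPT had an FPKM of 2.07, 3.06, 2.50 and 2.31. The strand of the reads is not given in the sources used here, and even with TFPT added the log2 ratio was −0.82 in 3NQ and −0.61 in the ΔTM-labelled library.

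NDUFC2, a subunit of the membrane arm, and the NDUFC2-KCTD14 read-through share a stretch of chromosome 11, where NDUFC2 spans 77779350 to 77791265 and the read-through 77728017 to 77790911 on the minus strand. NDUFC2 had an FPKM of 87.4, 94.9, 76.0 and 56.3. The read-through had 59.3, 57.6, 75.4 and 94.1. The entries moved in opposite directions, but their sum was 147, 153, 151 and 150.4, and its log2 ratio to Luc in the ΔTM-labelled library was 0.036. Summed, the locus passed 1.5-fold in no comparison, and both calls depend on how fragments were divided between overlapping entries. NDUFC2-KCTD14 shared 92.1% of its 50-base words with transcripts of other genes, and NDUFC2 19.4%.

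None of the core subunits of complex I was called in any comparison. NDUFV1, which binds NADH and its flavin, had an FPKM of 75.5, 64.7, 74.0 and 79.8. NDUFS8, an iron-sulfur subunit and the most abundant core gene, had 117, 91.0, 95.7 and 108, and its log2 ratio in WT, −0.36, was the lowest of the core. NDUFS7, near the ubiquinone site, was the least abundant together with the supernumerary NDUFA7, with 12.4, 10.6, 10.4 and 13.4. In these core genes WT or 3NQ was the lowest library.

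Other core genes were closer to flat. NDUFS1, the largest iron-sulfur subunit, had 76.7, 79.8, 70.2 and 71.7. NDUFS3 had 58.3, 57.3, 62.2 and 59.0. NDUFV2, an iron-sulfur subunit, had 57.5, 57.0, 63.0 and 55.0, but 89.4% of its 50-base words also occur in other genes' transcripts. NDUFS1 was the core gene that was higher in WT than in Luc, by 0.056 on the log2 scale.

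Among the supernumerary subunits, NDUFB9 was the most abundant, with an FPKM of 331, 316, 341 and 364, and NDUFA7 the least, with 11.9, 12.5, 12.8 and 10.4. NDUFA7 has another entry at the same locus, which was 0.00288, 8.50e-05, 0.896 and 3.31. With both entries added, NDUFA7 was 11.9, 12.5, 13.7 and 13.7, so that its place in the ΔTM-labelled library depends on which entry is read. Counted over the class, 22 of 30 supernumerary genes were lower in WT and 24 of 30 in 3NQ than in Luc.

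Assembly factors of complex I include NDUFAF2, the most abundant, with an FPKM of 31.5, 36.9, 36.8 and 39.4, lowest in Luc. NDUFAF1 was 18.3, 23.0, 20.5 and 20.5, also lowest in Luc. In contrast, NDUFAF5, NDUFAF6 and NDUFAF7 had WT as the lowest library, with log2 ratios of −0.25, −0.21 and −0.26. ATP5SL, named after the synthase but an assembly factor of the complex I membrane arm, was 31.3, 24.5, 31.7 and 34.1. The class thus held values on both sides, with 4 of 8 lower in WT.

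SDHAF2, which puts the flavin into SDHA, had an FPKM of 66.6, 65.3, 66.0 and 43.1, and was low in the ΔTM-labelled library alone. It lies on chromosome 11 (61197514 to 61215001, plus strand, GRCh37) inside a longer entry, RP11-286N22.8, on the same strand. That entry was 28.8, 62.6, 55.5 and 46.3. The sum was 95.4, 128, 121 and 89.4, so that WT over Luc was 0.42 on the log2 scale, 3NQ over Luc 0.35, the ΔTM-labelled library over Luc −0.093 and 3NQ over the ΔTM-labelled library 0.44. As a sum, Luc and the ΔTM-labelled library were the lower libraries, and no comparison passed 1.5-fold. SDHAF1, which helps to give SDHB its iron-sulfur clusters, was the least abundant member, with 4.70, 5.65, 4.67 and 4.34.

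In complex III, UQCRH, the hinge protein next to cytochrome c1, was the most abundant, with an FPKM of 271, 221, 231 and 332. UQCR11, a small subunit, was the least, with 14.2, 13.8, 12.3 and 21.8. Both were highest in the ΔTM-labelled library. Another UQCR11 entry on the same strand had 3.27, 2.91, 5.09 and 3.03, and with both added the log2 ratio of 3NQ over the ΔTM-labelled library was −0.49, no longer past 1.5-fold. The catalytic subunits did not share this pattern. CYC1, cytochrome c1, was 199, 162, 196 and 178, lowest in WT, and UQCRFS1, the Rieske iron-sulfur protein, was 80.0, 73.9, 74.7 and 77.8. UQCRB, which lines a ubiquinone site, was 203, 182, 187 and 149, lowest in the ΔTM-labelled library.

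Complex IV is the one with the most tissue-specific isoforms, and these cells used the widely expressed ones. COX4I1 was 291, 275, 282 and 259 in Luc, WT, 3NQ and the ΔTM-labelled library, while its isoform COX4I2 was listed at 0. COX6A1 was 224, 212, 229.6 and 209, and COX6A2, the heart and muscle form, appeared in 3NQ alone, at 0.0725. COX6B1 was 102, 94.3, 102 and 84.9, and COX6B2, a testis form, was 0.0285, 0.159, 0.0959 and 0.109. NDUFA4, once counted with complex I and now with complex IV, was 53.5, 48.0, 60.7 and 60.1, and its isoform NDUFA4L2 0.271, 0.342, 0.300 and 0.194. COX8A was 509, 388, 422 and 452, with a log2 ratio of −0.39 in WT, and COX8C was listed at 0. In each of these sets the minor form made up less than 1% of the set, with a highest share of 0.708%.

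COX7B was the exception. Its isoform COX7B2, described mainly in testis, had an FPKM of 52.8, 48.4, 49.5 and 65.6, against 41.1, 33.7, 39.6 and 46.1 for COX7B. COX7B2 made up 56.2%, 59.0%, 55.6% and 58.7% of the pair, and was the larger part in every library. COX7B was the least abundant complex IV subunit. COX7A2 was 147, 129, 128 and 149 and COX7A1, the muscle form, was listed at 0. COX7A2L, which links complexes III and IV into supercomplexes, was 134, 167, 153 and 125. COX7A2L was thus highest in WT (0.31 against Luc), where COX7A2 was lower (−0.19), and made up 47.7% of their sum in Luc and 56.4% in WT.

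Among the F1 subunits of the ATP synthase, ATP5B had an FPKM of 519, 442, 465 and 499. ATP5D had 10.7, 8.86, 9.07 and 10.7. Both were lowest in WT, like 4 of the 5 F1 genes. ATP5A1, the alpha subunit, was lowest in 3NQ, with 227, 204, 196 and 214. In the Fo part, ATP5J2 (chromosome 7, 99046098 to 99063954, minus strand, GRCh37) was 514, 448, 473 and 773. The ΔTM-labelled library was the highest for it by a wide step. With the overlapping PTCD1 entries added, its log2 ratio to Luc was 0.57, no longer past 1.5-fold. For 3NQ over the ΔTM-labelled library, the same sum had −0.70, still past 1.5-fold. ATP5J2 shared 39.1% of its 50-base words with other genes' transcripts. ATP5L, the g subunit and the least abundant of the Fo genes, was 83.4, 80.0, 91.1 and 103.

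The c subunit, whose ring turns as protons pass, is made from 3 genes. ATP5G1 had an FPKM of 84.6, 75.8, 92.7 and 135. ATP5G2 had 174, 152, 154 and 158, and ATP5G3 had 293, 267, 294 and 322. ATP5G1 was the minor gene throughout, with 15.3%, 15.3%, 17.2% and 22.0% of the 3, and its share was highest in the ΔTM-labelled library. The sum, 551, 495, 541 and 616, differed less between libraries than ATP5G1 did. ATP5G1, on chromosome 17 (46970127 to 46973233, plus strand, GRCh37), had a log2 ratio to Luc of 0.67 in that library, and the other 2 genes had −0.13 and 0.14.

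The last 228 coding bases of the 3 genes, read from GENCODE transcripts on GRCh37, show how far the genes differ in sequence over a part in which the encoded protein is the same. Capitals mark the 53 positions at which the 3 genes are not all alike.
ATP5G1: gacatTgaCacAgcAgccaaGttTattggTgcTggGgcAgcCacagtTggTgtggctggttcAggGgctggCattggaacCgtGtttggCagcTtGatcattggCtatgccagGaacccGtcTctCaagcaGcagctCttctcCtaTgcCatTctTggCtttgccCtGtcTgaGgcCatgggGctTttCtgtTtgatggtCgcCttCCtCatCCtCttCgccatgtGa
ATP5G2: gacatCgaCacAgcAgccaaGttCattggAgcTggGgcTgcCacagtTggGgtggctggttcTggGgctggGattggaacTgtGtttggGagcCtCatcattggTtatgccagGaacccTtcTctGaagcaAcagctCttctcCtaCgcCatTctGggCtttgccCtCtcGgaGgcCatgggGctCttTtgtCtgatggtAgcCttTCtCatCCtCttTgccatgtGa
ATP5G3: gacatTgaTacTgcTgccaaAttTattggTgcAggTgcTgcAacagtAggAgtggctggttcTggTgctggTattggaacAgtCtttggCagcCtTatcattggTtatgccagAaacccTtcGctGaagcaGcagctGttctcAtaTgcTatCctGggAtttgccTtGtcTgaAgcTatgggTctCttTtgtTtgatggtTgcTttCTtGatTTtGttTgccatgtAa
All 75 codons specify the same amino acids in the 3 genes. Base identity was 89.0% between ATP5G1 and ATP5G2 and 81.1% between ATP5G3 and either of them. The coding sequences in full are 411, 426 and 429 bases long.

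**Figure D5:**
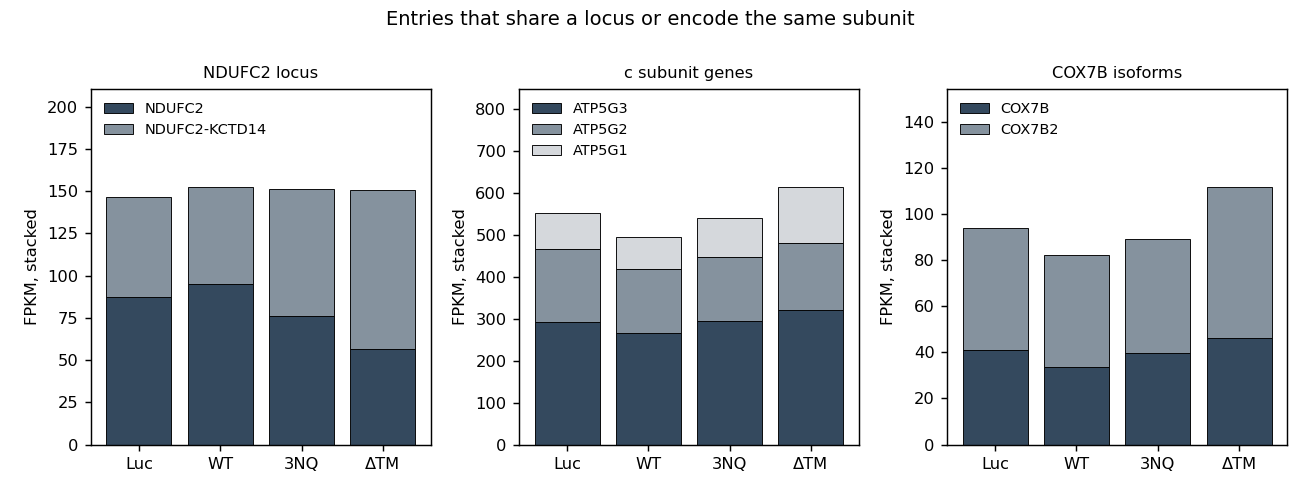
Stacked FPKM in each library for NDUFC2 and its read-through (left), the 3 c subunit genes (middle) and COX7B with COX7B2 (right). The NDUFC2 stack has nearly the same height in all libraries (147 to 153) while its parts change, and ATP5G1 is a larger part of its stack in the ΔTM-labelled library.

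Members share short transcripts, a feature the rule did not use. The median length of their annotated transcripts was 1044 bases, against 3277 for the 11065 genes with a match, and 48.9% were under 1000 bases, against 5.85%. Length moved with the ratios in the ΔTM-labelled library, and its part in the calls there was not tested. Over all genes, Spearman's rho between length and the log2 ratio to Luc was −0.21 in that library, 0.04 in WT and −0.10 in 3NQ, given as descriptions across genes that share the same libraries. The 647 short genes had a median of 0.019 in the ΔTM-labelled library, against −0.06 for all genes, and −0.049 in WT. In the ΔTM-labelled library, 45.7% of these short genes were lower than in Luc, against 63.0% of all genes. Among the members, the 44 short ones had a median of −0.15 in WT and the 46 longer ones −0.13. In the ΔTM-labelled library these were 0.029 and −0.048. With the median of all genes of like length taken off, added after seeing the data, the members' median was −0.11 in WT, and 68 of them were below Luc. In the same way it was −0.068 in 3NQ and 0.0075 in the ΔTM-labelled library.

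Many members also share stretches of sequence with other annotated transcripts, in part with entries at their own locus. Of the 90, 52 shared at least one 50-base word with a transcript of another gene, and 36 with an annotated pseudogene, but the median share was 0.853% of a transcript's words. It was over 50% in 9 members, among them SDHA (73.6%), NDUFB8 (73.0%), NDUFA13 (82.4%) and ATP5O (61.2%). For these, the deposited estimate can depend on how fragments shared between annotated entries were divided. In addition, 35 members overlapped another expressed entry, 11 of them on the same strand. Without the 11, the members' WT median was −0.15 and 66 were lower than in Luc. Without the 9, these were −0.15 and 66. Both counts were added after seeing the data.

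Promoters of respiratory chain genes are known for sites of NRF1, of ETS factors such as GABP (also called NRF2) and of YY1. The letters GCGCA, any base and GCGC for NRF1, CCGGAAG for ETS and AANATGGCG for YY1 were searched on both strands of RefSeq windows from 250 bases before to 50 bases after each start, which were found for 74 of the 90 members. NRF1 letters were in 16 of them (21.6%), against 12.4% of the 9403 tested genes with a window and 6.28% of all 27305 windows. ETS letters were in 21 (28.4%, against 20.8% and 10.7%), and YY1 letters in 17 (23.0%, against 7.54% and 3.37%). In WT, the median log2 ratio was −0.11 for members with NRF1 letters and −0.12 for those without. For ETS letters these were −0.081 and −0.14, and for YY1 letters −0.081 and −0.15. These medians were not tested against each other, and the letters are a description of the sequence, not of binding.

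The 250 bases before the start are shown for SDHA, for its repeated NRF1 letters, and for NDUFA3, UQCR11 and SDHAF2, which passed 1.5-fold in a comparison above and hold such letters upstream. The other members past 1.5-fold do not share this. ATP5G1, NDUFA2 and NDUFC2-KCTD14 held no match in their windows, and NDUFS4 held 1 YY1 match that was not wholly before the start. NDUFC2 and ATP5J2 had no window. Capitals mark the matches to any of the 3 motifs, sequences run 5′ to 3′ on the gene's strand, and coordinates are on GRCh38.p14.
SDHA (chr5:218070-218319, plus strand): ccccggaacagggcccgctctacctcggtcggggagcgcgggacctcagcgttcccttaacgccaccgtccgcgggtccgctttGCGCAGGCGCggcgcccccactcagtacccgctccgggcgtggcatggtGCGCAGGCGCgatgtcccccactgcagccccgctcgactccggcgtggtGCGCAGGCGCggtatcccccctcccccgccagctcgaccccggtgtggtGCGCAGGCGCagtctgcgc
NDUFA3 (chr19:54102605-54102854, plus strand): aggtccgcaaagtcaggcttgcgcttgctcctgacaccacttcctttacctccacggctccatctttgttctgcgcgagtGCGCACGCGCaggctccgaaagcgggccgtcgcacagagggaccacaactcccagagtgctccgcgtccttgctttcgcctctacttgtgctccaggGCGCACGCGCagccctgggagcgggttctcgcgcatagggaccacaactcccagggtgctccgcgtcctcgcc
UQCR11 (chr19:1605463-1605712, minus strand): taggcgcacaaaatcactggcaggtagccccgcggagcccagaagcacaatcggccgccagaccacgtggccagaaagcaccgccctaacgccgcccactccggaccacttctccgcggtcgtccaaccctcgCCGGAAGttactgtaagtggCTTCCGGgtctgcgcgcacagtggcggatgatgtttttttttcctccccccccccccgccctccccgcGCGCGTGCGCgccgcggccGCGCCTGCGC
SDHAF2 (chr11:61429874-61430123, plus strand): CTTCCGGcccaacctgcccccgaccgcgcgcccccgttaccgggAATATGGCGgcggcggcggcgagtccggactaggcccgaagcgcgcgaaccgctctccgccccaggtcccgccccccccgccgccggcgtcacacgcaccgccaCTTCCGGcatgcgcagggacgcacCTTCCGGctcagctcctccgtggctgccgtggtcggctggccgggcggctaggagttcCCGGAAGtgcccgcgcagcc
SDHA holds 4 NRF1 matches, which begin 166, 117, 68 and 19 bases before the start. NDUFA3 holds 2 NRF1 matches, UQCR11 2 NRF1 and 2 ETS matches, and SDHAF2 4 ETS matches and 1 YY1 match. None of the matches in these 4 stretches overlaps another, and their 4 genes had log2 ratios in WT of −0.12, −0.44, −0.045 and −0.027.

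Other mitochondrial gene lists, written from general knowledge, were set beside the members in the same comparisons. The 76 mitochondrial ribosomal protein genes, whose products translate the subunits encoded by mitochondrial DNA, had a median of 0.0073 in WT, with 37 lower than in Luc. A list of 41 other genes linked to the complexes had 0.00011, with 20 lower, and none was called at 1.5-fold. It held mostly assembly factors, but also genes such as CYCS, C14orf2, USMG5 and ATPIF1. The 18 genes listed for the citric acid cycle, with pyruvate dehydrogenase genes such as PDHA1 among them, had −0.11, with 12 lower and none called. The 10 coenzyme Q genes had −0.10. The 17 genes listed for glycolysis, with SLC2A1 and PDK1 among them, had −0.11. Medians near the members' WT median were therefore found for some other metabolic lists, but not for the mitochondrial ribosome or the mixed list of 41.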

How the data were processed

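Poly(A) RNA of MKN28 cells was made into TruSeq libraries from fragments selected by size and sequenced, 1 library per group. The authors mapped reads to GRCh37 with Tophat and estimated each gene with Cufflinks 2.1.1, with non-coding regions masked and corrections for fragment bias and for fragments mapped more than once. The deposited unit is FPKM, already scaled by the authors for library size and gene length. Read counts were not used here, so the depth is unknown and no interval was given. Fold values are log2((FPKM + 1)/(FPKM + 1)), called at 1.5-fold, for genes whose FPKM reached 1 in any library. Of entries with the same symbol, the one with the higher mean FPKM was used. Each count of members is set beside the share of all 11729 genes, and no test was made, since each group is 1 library.

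Genes named are those called in any comparison, the highest and lowest of each class by mean FPKM, the 3 highest and 3 lowest ratios of WT to Luc, the isoform sets, the complex II and complex I core genes and those next to the minimum. Any other was chosen after its values were seen. Single values of 1 complex I core gene are not reported here. The members and lists were chosen with earlier results of these data known. Transcripts came from GENCODE on GRCh37 and promoters from RefSeq on GRCh38.p14. Python 3.11.15, numpy 2.4.6, pandas 2.3.3, Biopython 1.88 and matplotlib 3.10.9 were used. The calls were also run on simulated data with planted changes larger than any seen among the members. That run therefore does not bear on changes of the members' size.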

Additional observations from a re-analysis of the deposited data

How the results depend on the processing

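With 1 library per group, no replicate could be left out, and no paired analysis was possible because no group has a second library. The pseudocounts of 0.1 and 5, the filters, both rescalings, the sum of entries and, chosen after seeing the data, the removal of members that overlap or share sequence left 73 of the 90 members below Luc in WT wherever all members were kept, and each median over all members moved by less than 0.1 on the log2 scale. WT was the lowest library for 41 members, and for 56 or 60 after rescaling. Rescaling shifts all genes of a library alike, and the share of all genes was not counted after it. The rise is therefore not read as a result about the members. Of 619 medians of members and classes computed under an alternative, 29 changed sign, all with main values between −0.16 and 0.041.

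Counts of calls moved more. At 2-fold, every count was 0. At 1.2-fold, 5 members were higher and 14 lower in WT, 2 and 14 in 3NQ, 11 and 8 in the ΔTM-labelled library, and 8 and 19 in 3NQ over that library. After either rescaling, on the median of ratios or upper quartile, 1 member was lower in the ΔTM-labelled library in place of 3. Shares of all genes were counted at the main setting and at 1.2-fold alone. Counts at the other settings are therefore not read as results about the members. SDHAF2, the only member higher in 3NQ over the ΔTM-labelled library, dropped out, leaving 0, with a pseudocount of 5, with the median of ratios, with structural subunits only, without members overlapping a same-strand entry and without members sharing over 50% of their 50-base words. Without members overlapping a same-strand entry, the ΔTM-labelled library had 1 higher and 1 lower, and 3NQ over it had 2 lower. With no filter, the complex IV median of 3NQ over the ΔTM-labelled library was 0 in place of −0.16, because unexpressed isoforms entered. With the mean of 3NQ and the ΔTM-labelled library as control, the WT medians were −0.11 for complex I assembly factors, 0.0068 for complex II and −0.13 for F1. That of all genes was 0.033. The unknown depth limits what can be said of the genes near an FPKM of 1.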

Other observations

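Regulators of mitochondrial gene expression were also measured, with 4 values in a row again those of Luc, WT, 3NQ and the ΔTM-labelled library. MYC, a general growth regulator, had an FPKM of 72.3, 99.6, 91.8 and 79.4, the highest WT ratio of the 16 listed regulators (0.46 on the log2 scale). TFB2M, a mitochondrial transcription factor, had 19.1, 25.6, 22.4 and 20.4, and PPRC1, a coactivator of the PGC-1 family, had 19.2, 24.0, 24.0 and 20.0. All 3 were lowest in Luc and none reached 1.5-fold. TFAM, which packs and transcribes mitochondrial DNA, was 59.5, 58.9, 64.5 and 56.0. NRF1 was 12.3, 10.9, 10.6 and 10.1, and TFB1M was 6.96, 5.24, 5.63 and 6.74. The list thus held genes on both sides of Luc, with a median of 0.034 in WT.

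Among the other lists, IDH2, the mitochondrial NADP-dependent isocitrate dehydrogenase, was the citric acid cycle gene called against Luc, in 3NQ, with an FPKM of 42.1, 33.9, 25.8 and 38.8 (−0.69 on the log2 scale). ATPIF1, the inhibitor protein of the ATP synthase, was 120.3, 96.4, 84.5 and 119, and USMG5, a small subunit of the synthase that the name rule does not take, was 187, 239, 198 and 272. GAPDH, often used as a reference gene, was 2198, 1591, 1981 and 2356, or −0.47 in WT. These genes were chosen after their values were seen.

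Of the 5 entries with pseudogene names, SDHAP1 had an FPKM of 13.0, 10.7, 8.92 and 9.22. SDHA, with which it is named, was also highest in Luc and lowest in 3NQ. COX6A1P2 was 3.31, 4.23, 4.56 and 0.856. Their values depend on how multi-mapped fragments were divided.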
